A study of Mus musculus with 4 samples.

Results

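The mitochondrial ribosomal protein genes, whose symbols begin with Mrpl for the large and Mrps for the small subunit, were followed through ultraviolet B (UVB) irradiation of mouse keratinocytes. The members were all genes with such a symbol that had at least 1 probe set assigned to that symbol alone. This gave 76 of the 18193 genes on the array, 47 with a large-subunit and 29 with a small-subunit symbol. The probe set with the highest mean signal over the 4 arrays stood for each gene. Another 4 probe sets, for Mrpl30, Mrpl53 and Mrps34, also carry a second symbol and were not used. Mrps34 has a further probe set of its own and stayed among the members.

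RNA came from primary keratinocytes of newborn C57BL/6 mice, labelled p38a-KO or WT. p38a is a stress-activated MAP kinase, and the design asks which transcripts depend on it. The groups were KO-labelled cells 4 h after UVB at 75 mJ/cm2, unirradiated KO-labelled cells, WT cells 4 h after the same UVB dose and unirradiated WT cells. Since each group has 1 array, differences between single arrays are unreplicated and precision is limited by the number of arrays. Neither the allele, nor the deleted part of the gene, nor the number of animals per culture is stated in the sources used here. An unirradiated culture kept for the same 4 h is not among the groups, so time in culture and irradiation cannot be told apart.

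Mapk14, which encodes p38a, read 647 and 1449 units in irradiated and unirradiated KO-labelled cells, against 293 and 985 units in the matching WT cells. These values are from the brightest of 6 probe sets of Mapk14, and the others were not examined singly. Signal of that probe set was not lower under the KO label but higher (limma adjusted p = 0.029). A probe set outside the deleted part would check nothing, so the cells are called KO-labelled and each genotype direction rests on the label. Keratinocyte identity was visible in Krt5 and Krt14, keratins of the basal layer, which lay between 11820 and 13795 units on every array. Fibroblast markers summed to 5098 and 7430 units in irradiated and unirradiated KO-labelled cells, against 3016 and 3815 units in WT, and melanocyte markers to 5637 and 8694 units against 4846 and 6179. Of 7 leukocyte markers 2 had a mean signal at the floor used here, and of 5 endothelial markers 0 did.

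Signal is given in MAS5 units, a summary of the probes of a probe set on a linear scale. A floor of 24.9 units was used, which is where the middle probe set lay by its mean over arrays, and 11379 genes had a mean at or above it. All 76 members did so on every array. How the authors scaled the arrays is not stated in the sources used here. The median signal was 18.7 units in irradiated cells of both genotypes, against 34.5 units in unirradiated KO-labelled and 30.3 in unirradiated WT cells, while the 18 spike-in probe sets had medians of 508 to 560 units. The highest signal of an array lay between 15210 and 16137 units on all 4. Differences are given as deposited, and beside them after quantile normalization, which gives every array the same distribution of values.

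Mitochondrial ribosomes translate the few messages encoded by mitochondrial DNA, all of which code for subunits of the respiratory chain and the ATP synthase. Their RNA is mitochondrial, but every protein is encoded in the nucleus, made in the cytosol and imported. Many members descend from bacterial ribosomal proteins, and most of the others are found in mitochondrial ribosomes only. Keratinocytes rely largely on glycolysis, and mitochondrial activity in the epidermis is known for its part in differentiation.

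After UVB the members had lower signal as deposited, by less than the typical gene, and most of them stood higher once arrays were given the same distribution. The median log2 difference was -0.50 in KO-labelled and -0.36 in WT cells, against medians of -0.82 and -0.70 for all 11379 genes. After quantile normalization the member medians turned to 0.27 and 0.30, against 0.06 and 0.05 for 11415 genes. As deposited, 56 of 76 members lay above the median of all genes in KO-labelled cells and 55 in WT cells. That count was 51 in both genotypes after quantile normalization.

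With limma fitted over all 11379 genes on log2 signal, with terms for irradiation and for genotype, 51 of 76 members fell as deposited and 0 rose at an adjusted p under 0.05. Among all genes 69.4% fell and 0.703% rose, so the share of falling members is close to the background. No member rose at an unadjusted p under 0.05 either, a count of 0. After quantile normalization the same model gave 35 members that rose and 7 that fell, against 19.9% of all genes in each direction. Of the 35, 10 were among the 51 that fell as deposited, so for these the direction depends on the scaling. Each array was also centred on its median over the 11379 genes instead. Then 57 members rose and 2 fell, against 36.1% and 15% of all genes. Of the 57, 32 were among the 51 that fell as deposited. With 1 array per group, the residual of this model is the disagreement between the UVB responses of the genotypes, with 1 residual degree of freedom and a variance prior pooled over genes. Its p-values do not measure a spread between cultures.

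A threshold of 2-fold was reached only downwards. As deposited, KO-labelled cells had 11 members lowered that far, against 39.3% of all genes, and WT cells had 9, against 34.8%. The same 9 members passed in both genotypes, and Mrpl38 and Mrps27 passed in KO-labelled cells only; that difference was not tested. At least 2-fold higher were 0 members in either genotype, against 0.167% of all genes in KO-labelled and 0.580% in WT cells. After quantile normalization 0 members were past 2-fold in either direction, where 4.1% of all genes were higher and 8.23% lower in KO-labelled cells and 5.34% higher and 9.49% lower in WT cells.

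**Figure D1:**
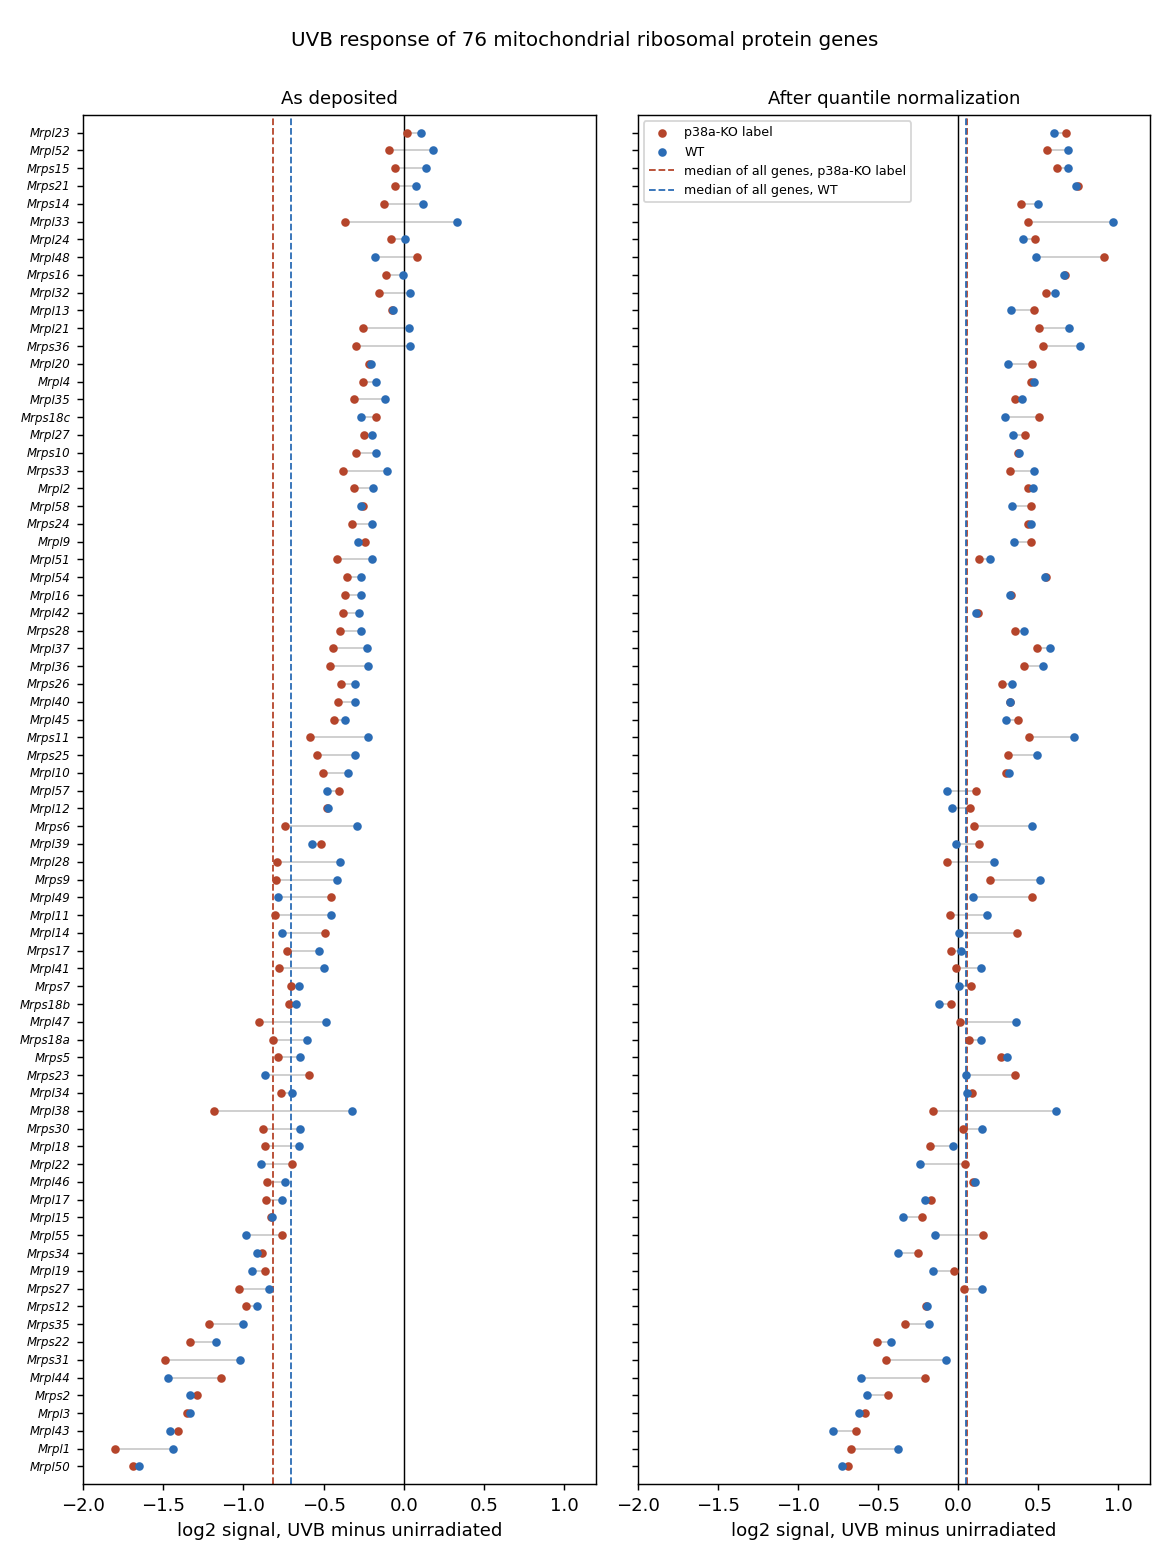
Log2 signal difference, UVB minus unirradiated, of all 76 members in KO-labelled (red) and WT cells (blue), 1 array per group, as deposited on the left and after quantile normalization on the right; dashed lines are the medians of all genes. Members run from Mrpl50 at the bottom to Mrpl23 at the top, and the bulk of points lies below 0 as deposited and above 0 after quantile normalization.

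The members differed widely among themselves. Mrpl50, a protein of the large subunit without a bacterial relative, read 157 and 139 units in irradiated KO-labelled and WT cells, against 507 and 438 units in unirradiated ones. It was 3.22-fold lower in KO-labelled and 3.15-fold lower in WT cells, the lowest UVB effect of all members at a log2 difference of -1.67, with SE 0.15 and a limma adjusted p of 1.4e-05. After quantile normalization Mrpl50 still fell by 0.71 (limma adjusted p = 0.0048). Its second probe set gave -1.31 as deposited. After quantile normalization that probe set read 140 and 122 units in irradiated KO-labelled and WT cells, against 164 and 144 units in unirradiated ones.

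Mrpl1, whose bacterial relative forms the stalk beside the exit site for tRNA, read 53.1 and 58.7 units in irradiated KO-labelled and WT cells, against 185 and 159 units without irradiation. Mrpl43, another protein of the large subunit, read 402 and 357 units against 1065 and 981. Both irradiated values lay below both unirradiated ones for each of these genes. Mrpl43 fell by 1.43 as deposited (SE 0.12, limma adjusted p = 1.1e-05) and by 0.71 after quantile normalization (limma adjusted p = 0.0014). Mrpl1 fell by 1.62 as deposited, and its effect of -0.52 after quantile normalization did not pass (limma adjusted p = 0.080).

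Mrpl3, which reaches towards the peptidyl transferase centre where peptide bonds are made, read 405 and 344 units in irradiated KO-labelled and WT cells, against 1032 and 866 units without irradiation. Mrps2, which lies on the solvent side of the small subunit, read 319.9 and 281 units in the irradiated cells, against 781 and 708 units. Mrpl44, which is related to RNase III, read 249 and 179 units against 548 and 497. The irradiated and unirradiated values of all 3 genes were well apart. Mrpl3 and Mrps2 fell by 1.34 and 1.31 as deposited and by 0.60 and 0.50 after quantile normalization, with limma adjusted p of 0.0030 and 0.0096 in the quantile fit. Mrpl44 fell by 1.31 as deposited and had -0.41 after quantile normalization (limma adjusted p = 0.052), and its 4 probe sets ranged from -1.55 to -1.11 as deposited.

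The 7 members that fell after quantile normalization were Mrpl50, Mrpl43, Mrpl3, Mrps2, Mrps22, Mrps34 and Mrpl15, and all 7 also fell as deposited. Mrps22, a protein of the small subunit whose human form is altered in a mitochondrial disease, had -1.25 as deposited and -0.46 after quantile normalization. Mrps34 and Mrpl15 had -0.90 and -0.83 as deposited and -0.31 and -0.28 after quantile normalization. Mrpl15 has 8 probe sets, and the 6 at or above the floor ranged from -1.01 to 0.19 as deposited. The highest of these was a dimmer probe set with a mean signal of 126 units.

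At the other end, the signals of several members were nearly level between irradiated and unirradiated cells although the array median was lower after UVB. Mrpl23, which lines the exit of the tunnel for the growing peptide, read 1175 and 1227 units in irradiated KO-labelled and WT cells, against 1156 and 1141 units without irradiation. It was the only member above 0 in both genotypes, and its effect of 0.06 as deposited did not pass (limma adjusted p = 0.60). After quantile normalization it rose by 0.63 (limma adjusted p = 0.0011).

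Mrpl52 read 1121 and 1258 units in irradiated KO-labelled and WT cells, against 1197 and 1109 units without irradiation. Mrps15, an rRNA-binding protein of the small subunit, read 1058 and 1001 units against 1098 and 909. Mrps14, another protein of the small subunit, read 2023 and 2002 units against 2201 and 1846. In all 3 the irradiated value was the lower one in KO-labelled cells and the higher one in WT cells. None of the 3 passed as deposited, and after quantile normalization they rose by 0.62, 0.65 and 0.45 (limma adjusted p = 0.0013, 0.0011 and 0.0035).

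Mrps21 read 645 and 656 units in irradiated KO-labelled and WT cells, against 670 and 623 units without irradiation. Its effect was 0.01 as deposited and it rose by 0.74 after quantile normalization (limma adjusted p = 0.0011). A second, dim probe set of Mrps21 with a mean signal of 37.4 units gave -0.92 as deposited, and with the mean of both probe sets the gene fell by 0.46 (limma adjusted p = 0.022). Mrpl33, a small zinc-binding protein of the large subunit in bacteria, is described with the genotypes below; its effect was -0.02 as deposited and it rose by 0.70 after quantile normalization (limma adjusted p = 0.0046).

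**Figure D2:**
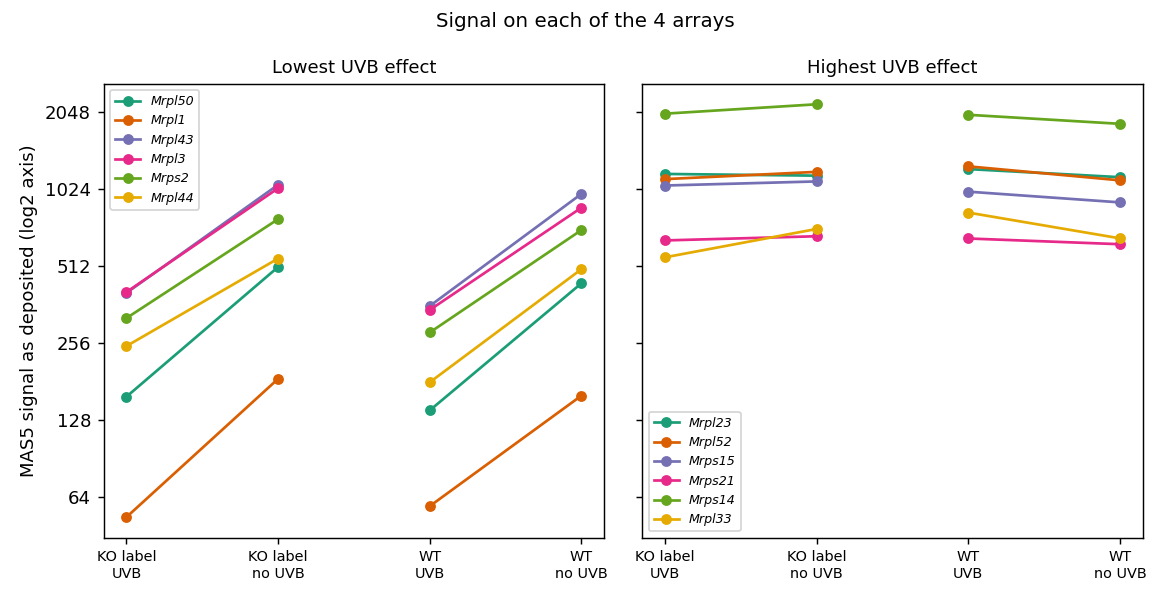
MAS5 signal as deposited on each of the 4 arrays, on a log2 axis, for the 6 members with the lowest (left) and the 6 with the highest UVB effect (right); lines join the irradiated to the unirradiated array of a genotype. Mrpl50 lies at 157 and 139 units in irradiated cells, against 507 and 438 in unirradiated ones, whereas Mrpl23 lies between 1141 and 1227 on all arrays.

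Mitochondria have 3 proteins of the S18 family where bacteria have 1, and the Mrps18 genes did not share 1 value. Mrps18a, whose protein sits in the large subunit in mammals, read 351 and 398 units in irradiated KO-labelled and WT cells, against 619 and 605 units without irradiation. Mrps18b, a small-subunit protein, read 823 and 791 units against 1351 and 1261. Mrps18c, the form at the bacterial S18 site, read 925 and 868 units against 1044 and 1046. The first 2 fell as deposited, by 0.71 and 0.69 (limma adjusted p = 0.00097 and 0.00034), and Mrps18c had -0.22 (limma adjusted p = 0.094). After quantile normalization Mrps18c rose by 0.40 (limma adjusted p = 0.014), and Mrps18a and Mrps18b had 0.11 and -0.08, neither of which passed. Each of the 3 has 1 probe set.

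The subunits and the structural regions overlapped in their UVB responses. The 47 large-subunit symbols had medians of -0.45 in KO-labelled and -0.35 in WT cells as deposited, and 0.30 in both after quantile normalization. The 29 small-subunit symbols had -0.70 and -0.41 as deposited, and 0.27 and 0.31 after quantile normalization. Of the large-subunit symbols 31 fell as deposited and 22 rose after quantile normalization, and of the small-subunit ones 20 fell and 13 rose. Over all genes 69.4% fell as deposited, and after quantile normalization 19.9% rose and 19.9% fell, which is the background of these counts and of those by family and region. Members were also split by symbol number alone, with Mrpl up to 36 and Mrps up to 21 counted as families shared with bacteria. These 43 members had medians of -0.49 and -0.29 as deposited, and 25 of them fell. The 33 with higher numbers, counted as found in mitochondria only, had -0.52 and -0.48, and 26 fell. A number does not settle the origin of a single gene, and Mrps36 is among the 33. After quantile normalization 22 of the 43 and 13 of the 33 rose. These differences between groups of members were not tested.

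Regions were assigned to some members only, and the groups may leave out other members that lie there. The 6 assigned to the path of the mRNA and the decoding site were Mrps2, Mrps5, Mrps7, Mrps9, Mrps11 and Mrps12. All 6 fell as deposited, with medians of -0.79 in KO-labelled and -0.65 in WT cells. After quantile normalization 1 of them fell and 1 rose. Mrpl10, Mrpl11 and Mrpl12, the 3 assigned to the stalk that recruits translation factors, all fell as deposited, with medians of -0.50 and -0.45. After quantile normalization 0 of these 3 fell and 1 rose, with medians of 0.07 and 0.18. Of the 5 members of the central protuberance 4 fell as deposited, and after quantile normalization 0 fell and 2 rose. Of the 5 members near the peptidyl transferase centre, Mrpl2, Mrpl3, Mrpl4, Mrpl16 and Mrpl27, 2 fell as deposited, and after quantile normalization 4 rose and Mrpl3 fell. Of the 6 members around the polypeptide exit, Mrpl17, Mrpl22, Mrpl23, Mrpl24, Mrpl32 and Mrpl45, 3 fell as deposited, and after quantile normalization 4 rose.

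Members of higher signal had smaller falls as deposited. Over the 76 members the UVB effect and mean log2 signal correlated at r = 0.53 (Pearson) and rho = 0.50 (Spearman) as deposited, and 0.23 and 0.17 after quantile normalization. Over 11366 of the genes tested the correlations were 0.09 and 0.06 as deposited. They were -0.03 and -0.05 over 11402 genes after quantile normalization. The members share the 4 arrays and their scaling, so this is a description. Set beside other genes of the same signal range, the 31 members of 400 to 800 units had medians of -0.54 in KO-labelled and -0.36 in WT cells, against -0.79 and -0.71 for 1489 other genes. After quantile normalization these medians were 0.30 and 0.30, against 0.04 and 0.01. The 24 members of 800 to 1600 units had -0.34 and -0.27 as deposited, against -0.63 and -0.54 for 856 other genes. The 15 members of 100 to 400 units lay nearest to other genes, at -0.85 and -0.79 against -1.03 and -0.96. In total 54 of 76 members in KO-labelled and 55 in WT cells lay above the median of other genes of their own range as deposited, and 53 in both genotypes after quantile normalization.

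Gene size did not order the members. The genes span a median of 7690 bp in the RefSeq annotation of GRCm38.p6, against 22889 bp for 11366 of the genes tested, and lie on 17 chromosomes. Over all genes the UVB effect and the log of the span correlated at r = -0.32 (Pearson) and rho = -0.34 (Spearman) as deposited, and -0.27 and -0.28 after quantile normalization. Over the 76 members the correlations were -0.09 and -0.07 as deposited, and 0.03 and 0.03 after quantile normalization. The 26 shortest genes had a median effect of -0.46 as deposited and the 25 longest one of -0.54. Gene span was not part of any fit, and its part in the members' medians was not tested.

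Where a member has several probe sets these mostly gave the same sign as deposited. Of 42 members with several probe sets, 34 had at least 2 at or above the floor. In 29 of the 34 all of those had the same sign of UVB effect as deposited. On that scale 74 of 76 members lay below 0 in KO-labelled and 66 in WT cells, so a shared sign carries little information. Agreement after quantile normalization was not counted.

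Promoter sequences of 67 members are held in the RefSeq table of GRCm38.p6, from 250 bases before to 50 bases after the start. They were searched on both strands for 3 motifs known from promoters of nuclear genes for mitochondrial proteins. The motifs were that of nuclear respiratory factor 1 (NRF1), given by its name alone, CCGGAAG of the ETS family and ATGGCGG of YY1, and no 2 of them overlapped in a member's window. CCGGAAG stood in the windows of 25 of 67 members, or 37.3%, against 20.4% of the 9220 tested genes with a window and 8.86% of all 32851 windows. The NRF1 motif stood in 12 members, or 17.9%, against 11.6% of tested genes and 4.6% of all windows. ATGGCGG also stood in 12 members, against 9.4% of tested genes and 4.05% of all windows. The 40 members with any of the motifs had a median UVB effect of -0.51 as deposited and the 27 without had -0.42, and after quantile normalization these were 0.19 and 0.31. A match is a description of the letters and does not show binding.

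The windows of the member with the lowest UVB effect, of the one with the highest and of Mrps26, the only member called for genotype, are shown with matched motifs in capitals. They are Mrpl50 at chr4:49521034-49521333 on the minus strand, Mrpl23 at chr7:142532782-142533081 on the plus strand and Mrps26 at chr2:130563507-130563806 on the plus strand. Mrpl50 holds 1 ATGGCGG, and Mrps26 holds CCGGAAG on the other strand and 2 copies of the NRF1 motif that overlap each other. None of the 3 motifs is in the window of Mrpl23.
Mrpl50: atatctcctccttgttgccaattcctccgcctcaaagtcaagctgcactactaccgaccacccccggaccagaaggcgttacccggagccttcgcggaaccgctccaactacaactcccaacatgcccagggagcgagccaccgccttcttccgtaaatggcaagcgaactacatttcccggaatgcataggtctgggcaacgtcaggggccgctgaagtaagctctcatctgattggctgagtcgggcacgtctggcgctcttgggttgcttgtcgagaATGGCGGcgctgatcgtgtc
Mrpl23: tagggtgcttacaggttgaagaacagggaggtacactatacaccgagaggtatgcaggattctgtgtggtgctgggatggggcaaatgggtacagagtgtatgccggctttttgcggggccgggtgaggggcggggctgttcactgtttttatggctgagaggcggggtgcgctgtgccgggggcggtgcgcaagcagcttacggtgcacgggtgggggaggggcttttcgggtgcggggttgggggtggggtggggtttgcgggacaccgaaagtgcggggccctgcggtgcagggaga
Mrps26: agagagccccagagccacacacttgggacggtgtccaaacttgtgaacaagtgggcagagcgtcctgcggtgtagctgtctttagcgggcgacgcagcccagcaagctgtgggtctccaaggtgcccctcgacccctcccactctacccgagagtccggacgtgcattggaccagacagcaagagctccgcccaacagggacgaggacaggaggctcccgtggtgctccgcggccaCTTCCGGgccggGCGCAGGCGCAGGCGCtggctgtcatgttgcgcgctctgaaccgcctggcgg

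Between the genotypes the members differed little, and Mrps26 was the only one that passed a test. The median log2 difference, KO-labelled minus WT, was 0.05 after UVB and 0.18 without irradiation, against 0.05 and 0.16 for all genes. After quantile normalization the medians were -0.0046 and 0.023. As deposited, 43 members were above 0 in both conditions and 3 below 0 in both, against 45% and 14.1% of all genes, and after quantile normalization 25 and 22 were, against 30.4% and 27.6%. Past 2-fold were 0 members in either condition or direction. Of all genes, 1.41% were that much higher and 1.47% that much lower in KO-labelled cells after UVB, and 1.63% and 0.729% without irradiation. In the limma fit over both conditions 1 member was higher and 0 lower in KO-labelled cells, against 0.967% and 0.642% of all genes, and at an unadjusted p under 0.05 the counts were 9 and 0, against 13.7% and 3.74% of all genes. The quantile fit also gave 1 and 0 members, against 0.552% and 1.04% of all genes.

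Mrps26, a protein of the small subunit, read 929.6 and 1221 units in irradiated and unirradiated KO-labelled cells, against 621 and 768 units in WT cells. Each KO-labelled value was above both WT values, and the log2 difference was 0.58 after UVB and 0.67 without irradiation. The genotype effect, their mean, was 0.63 with SE 0.11 and a limma adjusted p of 0.031. It was 0.53 after quantile normalization (limma adjusted p = 0.035) and 0.51 with each array centred on its median, where it did not pass (limma adjusted p = 0.061). With that centring 0 members were called in either direction, against 0.398% and 0.849% of all genes. The other probe set of Mrps26 was below the floor on every array, and with both averaged the effect was 0.31 (limma adjusted p = 0.29). At the same effect of 0.63 the call was also lost without the intensity trend (limma adjusted p = 0.30) and with genotype as the only factor (limma adjusted p = 1.0). Fibroblast markers moved the same way, with 6 of 9 higher in KO-labelled cells in the same fit, and their part in this result was not tested.

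The next members in that order did not pass. Mrpl18, a protein of the central protuberance, read 699 and 1277 units in irradiated and unirradiated KO-labelled cells, against 567 and 894 units in WT (0.41, limma adjusted p = 0.13). Mrps23 and Mrps25 had genotype effects of 0.38 and 0.36 (limma adjusted p = 0.23 and 0.21). At the low end Mrpl33, Mrpl37, Mrpl45, which ties the ribosome to the inner membrane, and Mrpl48 had -0.23, -0.16, -0.10 and -0.09, with limma adjusted p between 0.52 and 0.77. Over the 76 members the difference after UVB and the difference without irradiation correlated at r = 0.30 and rho = 0.32 as deposited, against 0.35 and 0.28 over all genes.

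**Figure D3:**
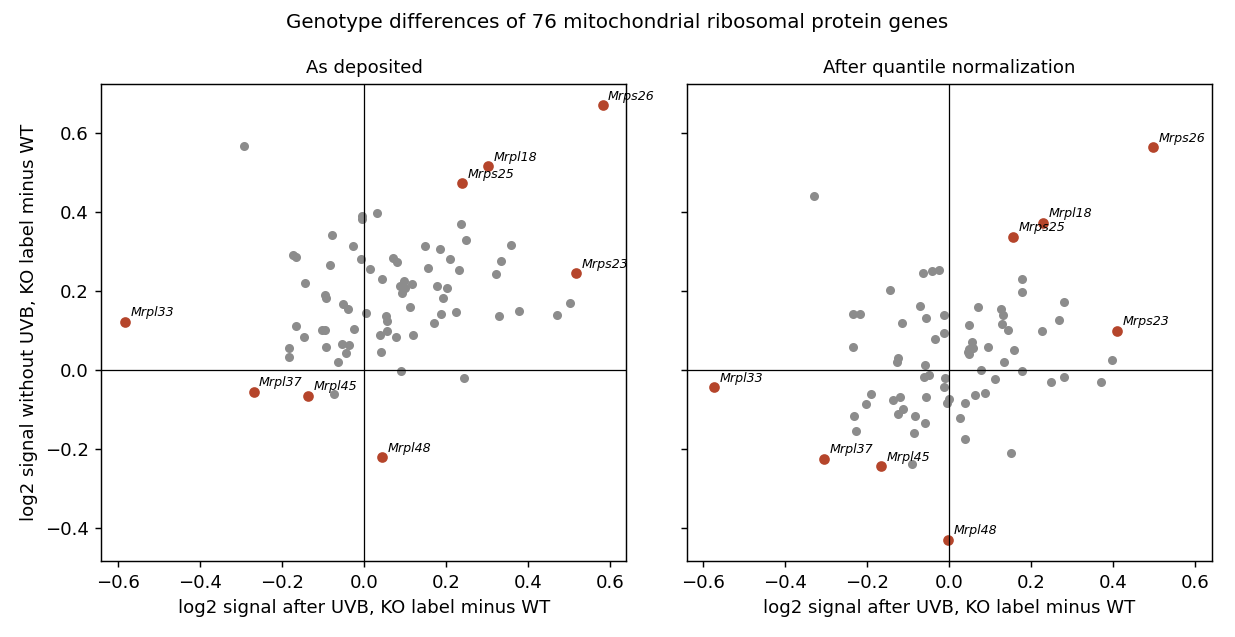
Log2 signal difference, KO-labelled minus WT, after UVB (horizontal axis) and without irradiation (vertical axis) for 76 members, 1 array per group, as deposited and after quantile normalization; the 8 members named for their genotype effect are in red. Mrps26 lies highest on both axes in both panels, and most other points lie above the horizontal line as deposited and on both sides of it after quantile normalization.

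The UVB responses of the genotypes followed each other across members. Over the 76 members the responses, which share no array, correlated at r = 0.88 and rho = 0.89 as deposited, against 0.81 and 0.78 over all genes. The median difference of the responses, KO-labelled minus WT, was -0.11, against -0.08 for all genes, and -0.01 against 0.02 after quantile normalization. As deposited the response was lower in KO-labelled cells for 60 members and higher for 16, where it was lower for 59.8% of all genes. The split depended on the scaling, with 40 lower and 36 higher after quantile normalization, against 47.9% of all genes lower, and 50 and 26 with centring, against 51%. A test of a single difference of responses cannot be made with 1 array per group.

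The largest differences were in Mrpl38 and Mrpl33. Mrpl38, a protein of the central protuberance, read 172 and 391 units in irradiated and unirradiated KO-labelled cells, against 211 and 264 units in WT. The difference of responses was -0.86 as deposited and -0.77 after quantile normalization. Its 2 dimmer probe sets at the floor gave 0.12 and 0.84, of opposite sign. Mrpl33 read 554 and 715 units in irradiated and unirradiated KO-labelled cells, against 829 and 657 units in WT, so the irradiated value was the lower one in KO-labelled cells and the higher one in WT cells. The difference was -0.70 as deposited and -0.53 after quantile normalization, and the second probe set of the gene had a mean below the floor.

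Mrps31, a small-subunit protein, followed with -0.46 as deposited, with 139 and 390.2 units in irradiated and unirradiated KO-labelled cells against 157 and 319 units in WT. In the other direction Mrpl49, Mrpl44 and Mrps23 had 0.33, 0.33 and 0.27. For Mrpl44 all 4 probe sets gave a positive difference, from 0.30 to 0.64, and for Mrps23 all 3 did, from 0.27 to 0.70.

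The other genes of mitochondrial translation had lower medians as deposited than the members, and the ribosomal proteins of the cytosol had higher ones. These lists differ in signal. In unirradiated KO-labelled cells signal summed to 4045 units over 13 translation factors and 3778 over 19 synthetase and amidotransferase genes. It summed to 406103 units over the 48 cytosolic ribosomal protein genes on the array. The lists were not matched for signal, and its part in their order was not tested. The counts of these lists stand against the 69.4% of all genes that fell as deposited and the 19.9% in each direction after quantile normalization. Mitochondrial ribosomal proteins with other symbols were represented by Dap3, Chchd1, Ptcd3 and Gadd45gip1, of 6 listed. Dap3 and Chchd1 had effects of -0.14 and -0.13 as deposited and rose by 0.41 and 0.39 after quantile normalization (limma adjusted p = 0.0068 and 0.0092). Ptcd3 and Gadd45gip1 fell as deposited by 0.89 and 0.93 (limma adjusted p = 0.0011 and 0.00015), and had -0.06 and -0.14 after quantile normalization.

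Of 13 mitochondrial translation factors 11 fell and 0 rose as deposited, and after quantile normalization 3 fell and 3 rose. Their medians were -0.85 in KO-labelled and -0.67 in WT cells as deposited, and 0.18 and 0.23 after quantile normalization. The lowest was Mtfmt, which formylates the initiator tRNA and read 35.7 and 24.7 units in irradiated KO-labelled and WT cells, against 186 and 145 units without irradiation; the WT irradiated value lay under the floor. The highest was Tsfm, the exchange factor of the elongation factor Tufm, with -0.38 as deposited and a rise of 0.68 after quantile normalization (limma adjusted p = 0.012).

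Of 19 mitochondrial aminoacyl-tRNA synthetase and amidotransferase genes, which charge the tRNAs, 16 fell as deposited, and after quantile normalization 1 fell and 3 rose. Their medians were -1.03 and -0.61 as deposited. Qrsl1 was the lowest, at 82.6 and 78.7 units in irradiated KO-labelled and WT cells, against 362 and 300.3 units without irradiation, and it fell in both fits. Of 24 ribosome assembly and rRNA factors 22 fell as deposited, with medians of -1.18 and -1.15, and of the 23 tested after quantile normalization 6 fell and 2 rose. Mpv17l2, an assembly factor, was the highest of them with -0.25 as deposited and a rise of 0.64 after quantile normalization (limma adjusted p = 0.0062).

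For comparison, 46 cytosolic ribosomal protein genes had medians of 0.00 in KO-labelled and -0.07 in WT cells as deposited, and 0.04 and 0.05 after quantile normalization. Of these 5 fell and 1 rose as deposited, and 1 fell and 7 rose after quantile normalization. The 75 nuclear subunits of oxidative phosphorylation had -0.08 and -0.03 as deposited, with 10 falling and 1 rising, and 0.30 and 0.27 after quantile normalization, with 50 rising and 0 falling. Those of the members after quantile normalization were 0.27 and 0.30, with 35 rising and 7 falling. The differences between these lists were not tested.

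**Figure D4:**
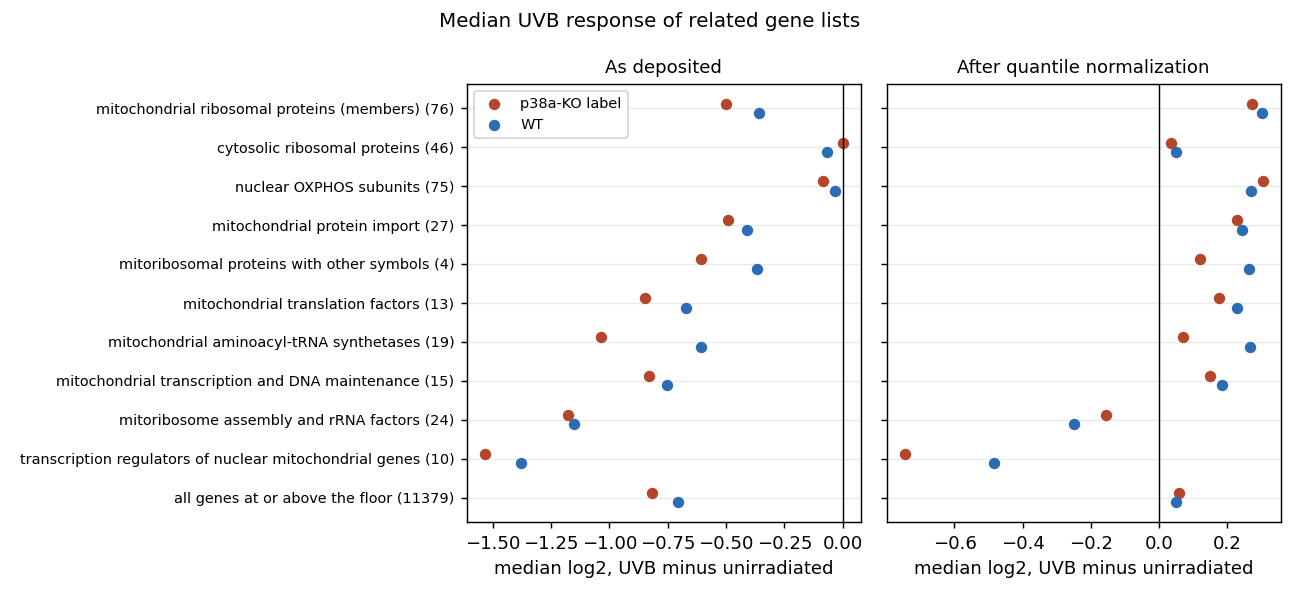
Median log2 signal difference, UVB minus unirradiated, of 10 gene lists and of all genes at or above the floor, in KO-labelled (red) and WT cells (blue), as deposited and after quantile normalization; numbers in brackets are genes tested as deposited. The mitochondrial ribosomal proteins lie at -0.50 and -0.36 as deposited, between the cytosolic ribosomal proteins and the assembly factors, and at 0.27 and 0.30 after quantile normalization. The lists were not matched for signal.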

How the data were processed

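RNA of 4 keratinocyte cultures was measured on 1 Affymetrix array each. The authors deposited 1 linear signal intensity for each probe set, summarised with MAS5 per the submitters' processing notes. The sources used here give no version, scaling target or detection calls. Of 45101 probe sets, 34945 have 1 gene symbol in the platform annotation, 932 several, 9160 none and 64 are controls. Values below the floor of 24.9 units were raised to it before log2. limma 3.58.1 in R 4.3.3 fitted irradiation and genotype with an intensity trend over all genes at or above the floor. The p-values were adjusted by Benjamini-Hochberg with a threshold of 0.05. This model was also run on simulated data with independent noise and equal numbers of genes raised and lowered. It recovered 98 of 100 genes changed by 1 on the log2 scale and 100 of 100 changed by 2. There were 13 false calls in 11379 genes. In the deposited data most genes fell, so the simulation cannot decide on the scaling or on a spread between cultures. Named members are the 6 lowest and highest by UVB effect, 4 by genotype effect, 3 by difference of responses, and the 3 Mrps18 genes; genes of related lists are the highest or lowest there. Mrps22, Mrps34, Mrpl15 and Mrps27 were named after their values were seen, as were the 4 ribosomal proteins with other symbols. The members, lists, regions and signal ranges were chosen with earlier results of these data known. Alternatives were quantile normalization, median centring, floors at the 25th and 75th percentile, all probe sets averaged, probe sets with suffixes left out, and limma without trend or with only the tested factor.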

Additional observations from a re-analysis of the deposited data

Results flagged for a closer look

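As deposited, 10 members had UVB responses of opposite sign in KO-labelled and WT cells, and the difference was not tested, since each group has 1 array. The difference of responses, KO-labelled minus WT, was -0.70 for Mrpl33, -0.34 for Mrps36, whose product has been assigned to the oxoglutarate dehydrogenase complex, and -0.29 for Mrpl21. It was -0.28 for Mrpl52, -0.24 for Mrps14, -0.19 for Mrpl32, -0.19 for Mrps15, -0.13 for Mrps21 and -0.088 for Mrpl24. These 9 were lower after UVB in KO-labelled and higher in WT cells, and Mrpl48, at 0.26, was the reverse. Among all genes 9.79% had opposite signs. After quantile normalization, and with median centring, 0 of these 10 had opposite signs, and 10 other members did after quantile normalization, where 19.8% of all genes had opposite signs.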

How the results depend on the processing

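The direction of the median UVB response of the members depends on the scaling of the arrays. In WT cells the median of -0.36 as deposited became 0.30 under quantile normalization and 0.71 under median centring, and in KO-labelled cells -0.50, 0.27 and 0.64. With centring the median of all genes was 0.28 in KO-labelled and 0.32 in WT cells. Members that rose numbered 0, 35 and 57, and members that fell 51, 7 and 2; with centring 36.1% of all genes rose and 15% fell. Genotype medians without irradiation were 0.182, 0.023 and 0.030, and after UVB 0.055, -0.0046 and -0.030, while the median difference of responses was -0.112 as deposited and -0.011 with quantile normalization. Mrps26 was the 1 member called for genotype, and the count was 0 with centring, with probe sets averaged, without the intensity trend and with only the tested factor. Between the deposited and quantile scales 54 members changed from below to above 0. Among the members named for their UVB effect, the sign changed for Mrps14 (0.45 with quantile normalization, 1.10 with centring), Mrpl33 (0.70 and 1.08), Mrps18a (0.11 and 0.39), Mrps18c (0.40 and 0.88) and Mrps18b (0.41 with centring). With probe sets averaged it changed for Mrpl52 at -0.10 and Mrps21 at -0.46, and Mrpl52 was -0.11 without probe sets marked by a suffix. The genotype effect of Mrpl48 was 0.025 with probe sets averaged. The difference of responses of Mrpl38 was 0.034 with probe sets averaged and 0.12 without marked probe sets. For the differences of responses of named members every alternative, quantile normalization included, was chosen after seeing the data. The cause of these changes was not tested. The other alternatives kept the direction and, within 1.5 times, the counts of the members' UVB results. No paired analysis was possible because each group has 1 array. Every member was above the floor on every array, and background signal was not estimated.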

Other observations

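The counts of the following lists stand against the 69.4% of all genes that fell as deposited and the 19.9% in each direction after quantile normalization. Of 10 measured transcription regulators known for nuclear genes of mitochondrial proteins, 10 fell as deposited, and after quantile normalization 7 fell and 1 rose. Their medians were -1.53 in KO-labelled and -1.38 in WT cells as deposited, and -0.75 and -0.48 after quantile normalization. Ppargc1b, a coactivator of mitochondrial genes, read 11.5 and 3.71 units in irradiated KO-labelled and WT cells, both under the floor, against 171 and 107 units without irradiation. Esrra, a nuclear receptor that works with it, read 157 and 163 units against 257 and 214 units, fell by 0.55 as deposited and rose by 0.47 after quantile normalization (limma adjusted p = 0.015 and 0.047).

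Of 15 genes for mitochondrial transcription and DNA maintenance 12 fell as deposited, and after quantile normalization 2 fell and 3 rose. Mgme1, a nuclease of mitochondrial DNA, was the lowest and read 39.8 and 33.5 units in irradiated KO-labelled and WT cells, against 142 and 114 units. Of 27 import genes 20 fell as deposited, and after quantile normalization 5 fell and 10 rose. Timm29, of a carrier translocase, read 262 and 170.3 units in irradiated KO-labelled and WT cells, against 693 and 478 units, and fell in both fits. Tomm7, of the outer membrane translocase, read 1289 and 1364 units against 1308 and 1285 units and rose by 0.59 after quantile normalization (limma adjusted p = 0.0014).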
